A study of Homo sapiens with 12 samples.

Results

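The CDC25 phosphatases and the WEE1 kinases set the inhibitory phosphorylation of the cyclin-dependent kinases (CDKs), and their transcripts were followed here in synovial sarcoma (SS) cells treated with the pan-PI3K inhibitor ZSTK474. The genes are *CDC25A*, *CDC25B*, *CDC25C*, *WEE1* and *PKMYT1*, and every probe set that is annotated with exactly 1 of these 5 symbols was taken. They are 5 of the 19775 genes that have such a probe set on the array used, the U133 Plus 2.0 GeneChip of Affymetrix, and 10 of its 54675 probe sets, 3 for *CDC25A*, 1 for *CDC25B*, 3 for *CDC25C*, 2 for *WEE1* and 1 for *PKMYT1*. The family was chosen with the changes at 3 µM already known, so the changes between 3 and 0 µM are given below as a description and are not tested for these probe sets.

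The wee1 family kinases, WEE1 in the nucleus and PKMYT1 (Myt1) at cytoplasmic membranes, phosphorylate CDK1 on residues near its ATP site and hold it inactive, and WEE1 acts on CDK2 in the same way. The CDC25 phosphatases remove these phosphates. CDC25A acts at the entry into S phase as well as at mitosis and is a short-lived protein that checkpoint kinases send for destruction, whereas CDC25B and CDC25C are known chiefly for the entry into mitosis.

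The 4 human SS lines, Fuji, SYO-1, Aska-SS and Yamato-SS, were kept for 24 h with vehicle (0 µM), with 0.3 µM or with 3 µM ZSTK474, in RPMI-1640 medium with fetal bovine serum. All 4 lines carry an SS18-SSX fusion, of the SSX1 type in Aska-SS and Yamato-SS and of the SSX2 type in SYO-1 and Fuji. Each line and dose gave 1 array, 12 in all, so that the 4 lines are the replicates of a dose and no line has a repeat of its own. The arrays measure messenger RNA from whole cultures, in which fewer cells of a kind and less RNA per cell cannot be told apart. They say nothing of protein level or phosphorylation, by which these enzymes are largely regulated.

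Values are signal intensities after quantile normalization, and they are compared between arrays for 1 probe set and never between probe sets. Of the 10 probe sets, 9 passed the filter on dim signals. The probe set 216914_at of *CDC25C* had a geometric mean signal of 33.0, below the filter at 65.1, with 2 arrays at the floor of 12.1, and it is given by its signals alone. The dimmest that passed was 204696_s_at of *CDC25A*, at 88.5. The median deposited signal lay between 60.1 and 70.6 on the untreated arrays and between 71.0 and 85.3 at 3 µM. The log2 ratio of the 3′ to the 5′ probe set of actin, which moves with RNA quality, rose between these doses. The rise was 0.12 to 0.21 in 3 lines and 0.59 in Fuji. The same ratio for *GAPDH* showed no such rise in Fuji, where it changed by 0.032. Its changes across all lines lay between -0.13 and 0.15. Of the markers of SS, *TLE1* and *CD99* were bright on all arrays (7260 to 24076 and 5138 to 13089), whereas *KRT19*, a keratin, was at the floor on 11 of 12. Of the 3 leukocyte markers measured, *CD14* was at the floor on 12 arrays, *PTPRC* was at most 36.1 and *CD3E* ranged from 23.6 to 227 (median 61.7), and none passed the filter.

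**Figure D1:**
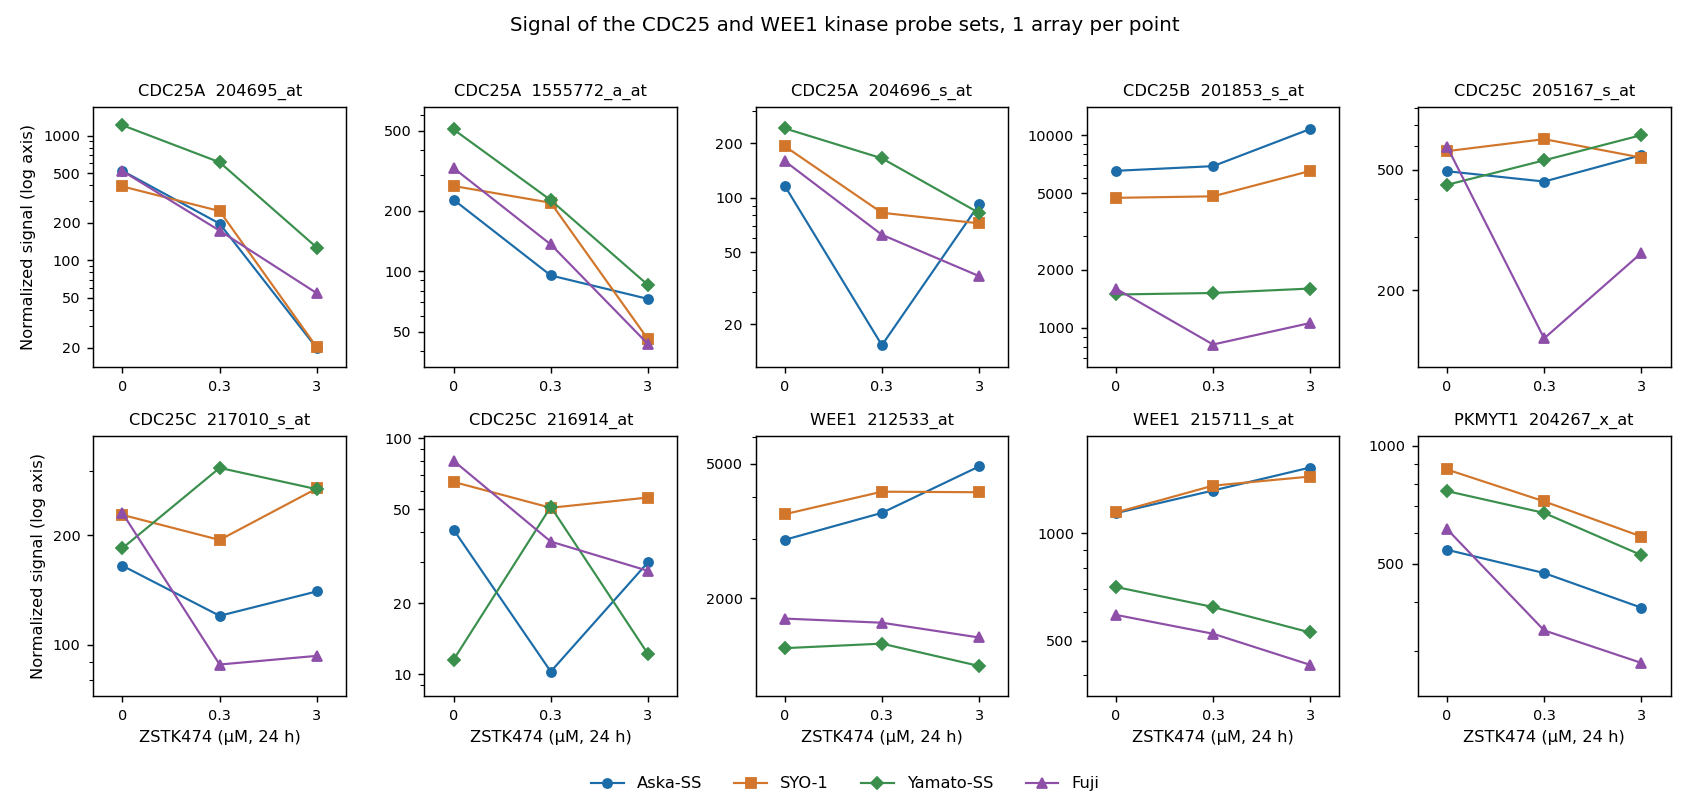
Normalized signal (log axis, arbitrary units) of the 10 probe sets against the ZSTK474 dose in µM, with 1 point per array and 1 line per cell line. All 3 *CDC25A* probe sets and that of *PKMYT1* were lower at 3 µM than at 0 µM in each of the 4 lines. For *CDC25B*, *CDC25C*, *WEE1* and *PKMYT1* the means of the lines lay further apart than the means of the doses. In 205167_s_at and 217010_s_at of *CDC25C*, Fuji was highest untreated and lowest at both other doses.

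*CDC25A* fell with dose. The probe set 204695_at had signals of 521, 197 and 19.8 at 0, 0.3 and 3 µM in Aska-SS, 391, 248 and 20.1 in SYO-1, 1209, 611 and 127 in Yamato-SS, and 519, 173 and 54.6 in Fuji. Every line stepped down at both dose steps, and no array at 3 µM reached any array at 0.3 or 0 µM. Yamato-SS was the brightest at each dose, and the arrays at 0 and 0.3 µM overlapped because the treated Yamato-SS culture stood above the 3 other untreated lines. On the log2 scale the level was 9.22 ± 0.70 (SD, n = 4) at 0 µM, 8.07 ± 0.82 at 0.3 µM and 5.35 ± 1.29 at 3 µM.

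From 0 to 0.3 µM the log2 change of 204695_at was -1.16 (SE 0.29), a 2.23-fold fall seen in 4 of 4 lines, with an adjusted p of 0.0409 by limma with Benjamini-Hochberg adjustment over the 27306 probe sets tested. This call needed all 4 lines and the filter on dim signals. The adjusted p was 0.175 without the filter, and with a filter at the 65th percentile the probe set was not tested. With a line left out it was 0.129 without Fuji, 0.157 without Aska-SS, 0.0908 without Yamato-SS and 0.0645 without SYO-1. From 0.3 to 3 µM the log2 change was -2.72 (SE 0.29), a 6.58-fold fall in 4 of 4 lines with a limma adjusted p of 0.0013. The 2 steps share the arrays at 0.3 µM, the first shares the untreated arrays and the second the arrays at 3 µM with the comparison on which the family was chosen, and so the p-values of these steps, for all probe sets given here, are not independent of that choice. Over the whole range, from 0 to 3 µM, the log2 change was -3.88 (SE 0.29) or 14.7-fold lower, between -4.72 in Aska-SS and -3.25 in Fuji. At 3 µM 3 of the 4 signals lay below 65.1, the level of the filter, which the probe set passed through the other doses.

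The other *CDC25A* probe sets also went down from 0 to 3 µM, with smaller changes. The probe set 1555772_a_at had signals of 227, 95.3 and 72.9 at 0, 0.3 and 3 µM in Aska-SS, 265, 219 and 46.0 in SYO-1, 507, 226 and 85.5 in Yamato-SS, and 326, 136 and 43.5 in Fuji. Each array at 0.3 µM lay below the 4 untreated ones and above the 4 at 3 µM. The gap to the untreated arrays was narrow, with 225.6 in Yamato-SS at 0.3 µM against 226.8 in untreated Aska-SS. The log2 change was -0.99 (SE 0.27, limma adjusted p = 0.0529) to 0.3 µM, which missed the threshold of 0.05, and -1.42 (SE 0.27, limma adjusted p = 0.00764) from 0.3 to 3 µM. The second step had a limma adjusted p of 0.0578 without SYO-1 and 0.0604 without the filter. At 3 µM the mean log2 level of 5.89 lay below the filter at 6.03, which the probe set passed through the other doses. Over both steps the change was -2.41 (SE 0.27).

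The third probe set, 204696_s_at, went down from 0 to 0.3 µM in 4 of 4 lines and then diverged. It had signals of 117, 15.4 and 92.0 in Aska-SS, 193, 82.7 and 72.3 in SYO-1, 242, 165 and 82.5 in Yamato-SS, and 159.7, 62.5 and 37.0 in Fuji. Aska-SS alone was lowest at the middle dose, near the floor, and came back by 2.58 on the log2 scale, while the other lines went further down, SYO-1 by 0.19, Fuji by 0.76 and Yamato-SS the most. The log2 change was -1.51 (SE 0.47, limma adjusted p = 0.077) to 0.3 µM and 0.16 (SE 0.47, adjusted p = 0.869) from 0.3 to 3 µM, the latter turning to -0.65 without Aska-SS. Over both steps it was -1.36 (SE 0.47). The mean log2 level of 204696_s_at was 7.42 untreated, 5.91 at 0.3 µM and 6.07 at 3 µM. It thus passed the filter at 6.03 mainly through the untreated arrays. With the mean of each line taken out, this probe set followed 204695_at with r = 0.42 and 1555772_a_at with r = 0.67 over the 12 arrays, whereas the latter pair had r = 0.92.

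The region before the transcription start of *CDC25A* is shown beside stretches picked at some, not all, of the starts of its paralogs. The stretches are from RefSeq (GRCh38.p14), 5′ to 3′ on the strand of the gene, and capitals mark matches to the letters TTGGCGC or TTCCCGC (an E2F-type motif), TTTGAA or TTCGAA (the cell cycle genes homology region, CHR) and CCAAT, on either strand.
*CDC25A*, chr3:48188418-48188537, minus strand: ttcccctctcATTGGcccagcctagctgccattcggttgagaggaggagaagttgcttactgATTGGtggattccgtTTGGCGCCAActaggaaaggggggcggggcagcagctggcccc
*CDC25B*, chr20:3796190-3796309, plus strand: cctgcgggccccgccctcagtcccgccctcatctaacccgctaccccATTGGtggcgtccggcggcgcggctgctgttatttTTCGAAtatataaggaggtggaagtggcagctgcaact
*CDC25C*, chr5:138331878-138332017, minus strand: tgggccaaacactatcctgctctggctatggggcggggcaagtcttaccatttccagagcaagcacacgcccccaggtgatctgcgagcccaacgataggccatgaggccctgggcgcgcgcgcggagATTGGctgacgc
*CDC25C*, chr5:138331815-138331844, minus strand: tggcggaaggTTTGAAtggtcaacgcctgc

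In the *CDC25A* stretch TTGGCGC occurs on both strands, 43 to 37 and 40 to 34 bases before the start, and the 2 matches overlap. CCAAT occurs 2 times on the opposite strand, as ATTGG. Windows of 300 bases, from 250 before to 50 after a start, were searched for all 35116 starts given, and 9.23% held an E2F-type match, 16.4% a CHR match and 34.6% a CCAAT match. *CDC25A* has 1 such window, with no CHR match. *CDC25B* and *CDC25C* have 4 windows each. An E2F-type match was in 1 and 2 of these, respectively, all in windows that are not printed above. A CHR match was in 1 and 2, and CCAAT in 2 and 2. Windows of *CDC25C* overlap, and its 2 E2F-type matches are the same bases, as are its 2 CHR matches. The CHR match of *CDC25B* lies 38 to 33 bases before the transcription start that its window covers, and that of *CDC25C* 30 to 25 bases before a transcription start. A match is a run of letters, and no binding was measured here.

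*CDC25B*, which is known for starting CDK1 activation before mitosis, was marked by line more than by dose. Its only probe set, 201853_s_at, had signals of 6529, 6904 and 10758 at 0, 0.3 and 3 µM in Aska-SS, 4729, 4815 and 6521 in SYO-1, 1492, 1518 and 1601 in Yamato-SS, and 1600.1, 821 and 1061 in Fuji. Aska-SS and SYO-1 stood above Yamato-SS and Fuji at every dose. The means of the lines spanned 2.81 on the log2 scale, against 0.38 for the means of the doses.

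To 0.3 µM the log2 change of *CDC25B* was -0.21 (SE 0.17, limma adjusted p = 0.504, 95% interval -0.59 to 0.17), and 0.043 without Fuji. Fuji was at -0.96, while the other lines were between 0.026 and 0.081. From 0.3 to 3 µM the signal was higher in 4 of 4 lines, by 0.38 on the log2 scale (SE 0.17, 95% interval 0.0020 to 0.76), with an adjusted p of 0.184 that misses the threshold. With the arrays of these 2 doses fitted alone, the adjusted p was 0.0251. From 0 to 3 µM the change was 0.17 (SE 0.17), from 0.72 in Aska-SS to -0.59 in Fuji. It was 0.43 without Fuji, 0.076 without SYO-1 and -0.010 without Aska-SS.

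*CDC25C*, which CDK1 itself activates at mitosis, differed between Fuji and the other lines. The probe set 205167_s_at had signals of 494, 457 and 558 at 0, 0.3 and 3 µM in Aska-SS, 575, 629.8 and 548 in SYO-1, 445, 536 and 649 in Yamato-SS, and 596, 139 and 266 in Fuji. The untreated lines lay close together, with a level of 9.03 ± 0.20 (log2, SD, n = 4), and Fuji was the brightest of them. At both doses Fuji was the lowest line. The probe set 217010_s_at had signals of 165, 120.2 and 140.3 in Aska-SS, 228, 194 and 269 in SYO-1, 185, 307 and 268 in Yamato-SS, and 230.2, 88.4 and 93.3 in Fuji, again with Fuji highest untreated and lowest at both doses.

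To 0.3 µM the log2 change of 205167_s_at was -0.45 (SE 0.30, limma adjusted p = 0.389, 95% interval -1.11 to 0.21) and that of 217010_s_at was -0.33 (SE 0.29, adjusted p = 0.513, 95% interval -0.96 to 0.29). Without Fuji these values were 0.096 and 0.016. From 0.3 to 3 µM the changes were 0.32 (SE 0.30, adjusted p = 0.54) and 0.14 (SE 0.29, adjusted p = 0.796). Over both steps they were -0.13 (SE 0.30) and -0.19 (SE 0.29), with Fuji at -1.16 and -1.30 and the other lines between -0.23 and 0.54. Without Fuji they were 0.22 and 0.18. The dim probe set 216914_at ranged from 11.5 to 80.4 untreated, from 10.2 to 51.3 at 0.3 µM and from 12.2 to 56.1 at 3 µM, and its lines took no common direction.

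Fuji also stood apart in genes of dividing cells. The mean log2 level of 11 S and G2/M phase markers, such as *MKI67*, *TOP2A* and *PCNA*, changed from 0 to 0.3 µM by -1.40 in Fuji, -0.43 in Aska-SS, -0.15 in SYO-1 and -0.068 in Yamato-SS. From 0 to 3 µM it changed by -1.75 in Fuji and by -0.79 to -0.52 in the other lines. The part of these markers, and of the RNA quality to which the actin and *GAPDH* ratios given above relate, in the *CDC25B*, *CDC25C* and *PKMYT1* values of Fuji was not tested.

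*WEE1*, the nuclear kinase that opposes CDC25, did not pass the test at either dose step. The probe set 212533_at had signals of 2977, 3577 and 4911 at 0, 0.3 and 3 µM in Aska-SS, 3545, 4134 and 4118 in SYO-1, 1422, 1466 and 1259 in Yamato-SS, and 1739, 1691 and 1529 in Fuji. The probe set 215711_s_at had signals of 1138, 1317 and 1527 in Aska-SS, 1143, 1359 and 1441 in SYO-1, 707, 622 and 527 in Yamato-SS, and 591, 523 and 428 in Fuji. In both, Aska-SS and SYO-1 were above Yamato-SS and Fuji at all doses, and the dose widened the gap. Each of these pairs of lines holds 1 line of each fusion type.

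From 0 to 3 µM the 2 *WEE1* probe sets went up in Aska-SS (0.72 and 0.42 on the log2 scale) and SYO-1 (0.22 and 0.33) and down in Yamato-SS (-0.18 and -0.42) and Fuji (-0.19 and -0.46). With 1 array per line and dose, a difference in response between lines has no replicate of its own and was not tested. The means over the lines were near 0, at 0.14 (SE 0.13) and -0.032 (SE 0.15), and without Aska-SS they were -0.049 and -0.19. To 0.3 µM they were 0.12 (SE 0.13, limma adjusted p = 0.609, 95% interval -0.16 to 0.41) and 0.025 (SE 0.15, adjusted p = 0.941, 95% interval -0.30 to 0.35). From 0.3 to 3 µM they were 0.022 (SE 0.13, adjusted p = 0.939, 95% interval -0.26 to 0.31) and -0.057 (SE 0.15, adjusted p = 0.848, 95% interval -0.38 to 0.27).

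*PKMYT1*, the membrane-bound kinase of the family, was lower at each higher dose in each line. Its probe set 204267_x_at had signals of 543, 474 and 387 at 0, 0.3 and 3 µM in Aska-SS, 869, 721 and 587 in SYO-1, 766, 674 and 526 in Yamato-SS, and 613, 338 and 279.7 in Fuji. The doses overlapped. The suffix of this probe set marks probes that may bind other transcripts. The log2 change to 0.3 µM was -0.38 (SE 0.13, limma adjusted p = 0.11, 95% interval -0.67 to -0.085) and that from 0.3 to 3 µM was -0.31 (SE 0.13, adjusted p = 0.167, 95% interval -0.60 to -0.014), and neither passed the threshold. Over both steps it was -0.68 (SE 0.13), with Fuji at -1.13 and the other lines between -0.57 and -0.49.

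**Figure D2:**
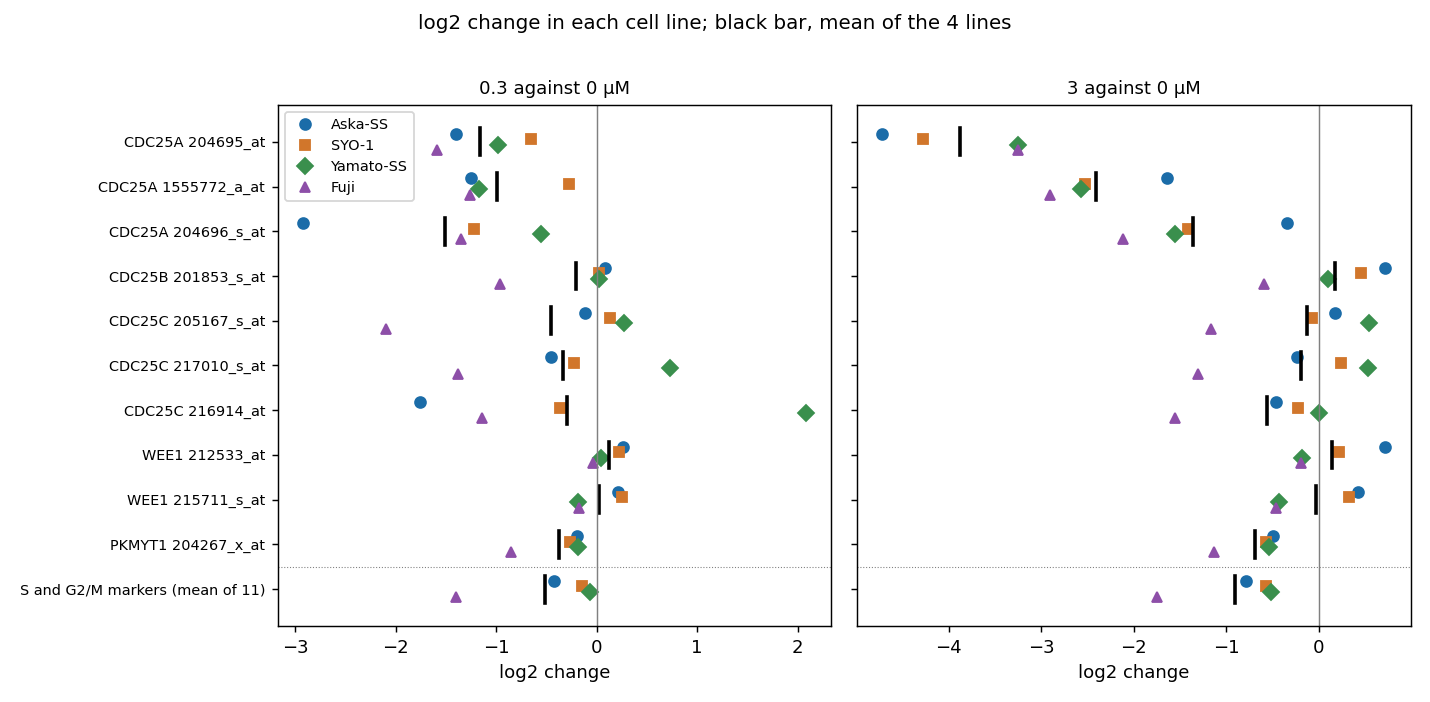
Log2 change of each probe set in each cell line, from 0 to 0.3 µM (left) and from 0 to 3 µM (right), with the mean of the 4 lines as a black bar and the mean of 11 S and G2/M markers in the last row. *CDC25A* lies left of 0 in all 4 lines, *WEE1* falls on both sides of 0, and Fuji has the lowest value for *CDC25B*, *CDC25C* 205167_s_at, *PKMYT1* and the markers on both sides.

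Of the 9 probe sets tested, 1 was lower and none higher at 0.3 µM against 0 µM in the limma test, where 5.32% of all 27306 probe sets passed, 2.24% lower and 3.08% higher. At an unadjusted p under 0.05, 4 were lower and 0 higher. Between 0.3 and 3 µM, 2 were lower and 0 higher (3 and 1 at an unadjusted p under 0.05), where 11.5% of all probe sets passed, 6.53% lower and 4.98% higher. At 3 µM against 0 µM, 4 passed the same threshold, all lower (4 and 0 at an unadjusted p under 0.05), the 3 of *CDC25A* and that of *PKMYT1*. There 39.4% of all probe sets passed, 19.8% lower and 19.6% higher, and nothing is read from this count because the family was chosen on it, nor from the count between 0.3 and 3 µM, which uses the same arrays at 3 µM. The groups of 4 arrays did not overlap, with the treated group lower, for 1 of the 9 probe sets at 0.3 µM, for 3 at 3 µM and for 2 between the doses, where the shares of all probe sets were 1.11%, 5.89% and 1.34%. All of these were of *CDC25A*, and that at 0.3 µM was 1555772_a_at, by the narrow gap given above. The 3 comparisons share arrays with each other.

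The genes around the CDC25 and WEE1 enzymes were taken from 7 lists of 79 genes in all, of which 77 were tested by their brightest probe set. At 3 µM 48 were lower and 4 higher than at 0 µM in the limma test, with a median log2 change of -0.53, where 21.0% of the 12132 genes tested were lower and 22.5% higher and their median was 0.014. At 0.3 µM 9 were lower and 0 higher (37 and 4 at an unadjusted p under 0.05), against 2.91% and 3.88% of all genes. Between 0.3 and 3 µM 19 were lower and 0 higher (31 and 3 at an unadjusted p under 0.05), against 7.53% and 6.65%. The 9 at 0.3 µM became 0 without Fuji or Aska-SS, 2 without Yamato-SS and 1 without SYO-1. All p-values in the paragraphs on these lists are adjusted over the 27306 probe sets. The lists were chosen with earlier results of these data known, so their counts and p-values are a description and no test of the lists.

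Of the CDKs and cyclins listed, not all of them targets of the enzymes, 7 of 12 fell at 3 µM and none rose. At an unadjusted p under 0.05, 8 were lower and 0 higher, and the median was -0.72. *CDK7*, *CCNH* and *MNAT1*, which are not such targets, were among those not called. The cyclins E, partners of CDK2 at the entry into S phase, were among them. *CCNE2* changed by -2.23 on the log2 scale (SE 0.25, limma adjusted p = 4.14e-05) and *CCNE1* by -1.78 (SE 0.13, adjusted p = 6.52e-06). *CDK2* itself changed by -1.11 (SE 0.14, adjusted p = 7.84e-05). At 0.3 µM *CCNE1* was at -0.63 (adjusted p = 0.0221) and *CDK2* at -0.52 (adjusted p = 0.0463), each lower in 4 of 4 lines.

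Among kinases upstream of CDC25 and WEE1, 8 of 10 tested fell at 3 µM and 1 rose. *CHEK1*, the checkpoint kinase that marks CDC25A for destruction, changed by -0.86 (SE 0.16, limma adjusted p = 0.00145), and *MELK*, a kinase reported to phosphorylate CDC25B, by -1.13 (SE 0.14, adjusted p = 7.32e-05). *ATM*, the kinase that responds to DNA breaks, rose by 0.58 (SE 0.10, adjusted p = 0.000999) in 4 of 4 lines. Of the PP2A, Greatwall and PP1 genes, whose products govern the phosphates that activate CDC25 at mitosis, 5 of 12 fell and 1 rose. *MASTL*, the Greatwall kinase, was at -1.14 (SE 0.21, adjusted p = 0.00119), its substrate *ENSA* at -0.36 (SE 0.080, adjusted p = 0.00362) and *PPP2CA*, the catalytic subunit of PP2A, at -0.53 (SE 0.064, adjusted p = 6.86e-05). The gene that rose was *CDC14B*, a phosphatase, by 0.40 (SE 0.093, adjusted p = 0.00471).

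The 14-3-3 proteins bind phosphorylated CDC25 and hold it away from its substrates. Of the 7 genes tested for them, 5 fell at 3 µM and none rose (5 and 0 at an unadjusted p under 0.05), with a median of -0.48. Those of smallest p, *YWHAQ*, *YWHAB* and *YWHAG*, were at -0.38, -0.51 and -0.52 (limma adjusted p = 0.000122, 0.000188 and 0.000196). Of 9 genes for the ubiquitin ligases that degrade CDC25A and WEE1, 5 fell and 1 rose. *CCNF*, an F-box cyclin, was at -0.76 (SE 0.15, adjusted p = 0.00193), *RBX1*, the RING subunit of cullin ligases, at -0.67 (SE 0.11, adjusted p = 0.000471) and *CDC27*, of the anaphase-promoting complex, at -0.56 (SE 0.10, adjusted p = 0.000714), while *BTRC*, the F-box protein that recognizes phosphorylated CDC25A and WEE1, rose by 0.47 (SE 0.13, adjusted p = 0.0125). The *BTRC* call was lost without SYO-1 (adjusted p = 0.0538), Yamato-SS (0.0599) or Fuji (0.0592) and with the 2 doses fitted alone (0.0508).

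Of 16 transcription factors and subunits tied to cell cycle promoters, 9 fell at 3 µM and 1 rose. *MYBL2*, the B-Myb factor of G2/M genes, changed by -2.77 (SE 0.24, limma adjusted p = 1.38e-05), *E2F1* by -1.38 (SE 0.20, adjusted p = 0.000202) and its partner *TFDP1* by -0.86 (SE 0.078, adjusted p = 1.53e-05). *MYC* rose by 0.60 (SE 0.12, adjusted p = 0.00146) in 4 of 4 lines. At 0.3 µM *MYBL2* was already lower in 4 of 4 lines, by -1.07 (adjusted p = 0.0312), and *TFDP1* by -0.34 (adjusted p = 0.0319). Of the 11 S and G2/M markers 9 fell at 3 µM and none rose (10 and 0 at an unadjusted p under 0.05), with *PCNA*, the replication clamp, at -0.98 (SE 0.077, adjusted p = 8.05e-06), *MCM6*, of the replicative helicase, at -0.98 (SE 0.12, adjusted p = 9.09e-05) and *TYMS*, thymidylate synthase, at -0.81 (SE 0.12, adjusted p = 0.000265). The part of a lower share of dividing cells in these changes was not tested.

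**Figure D3:**
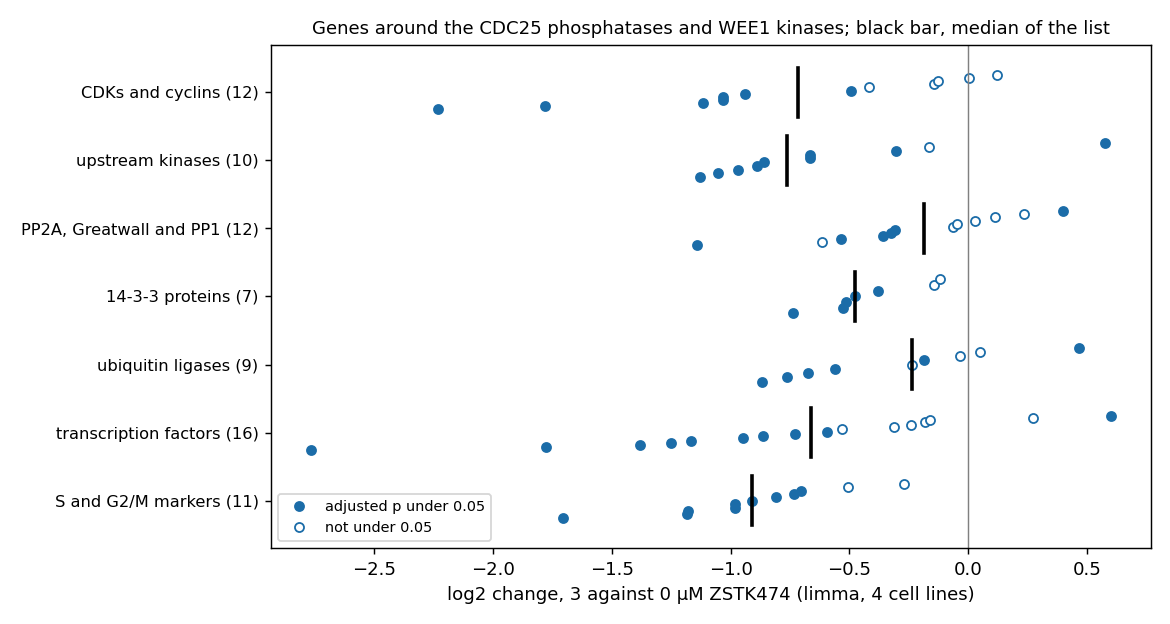
Log2 change from 0 to 3 µM (limma, 4 cell lines) of the 77 genes tested in 7 lists around the CDC25 and WEE1 enzymes, with filled points for an adjusted p under 0.05, open points for the rest and a black bar for the median of each list. The medians lie between -0.91 for the S and G2/M markers and -0.19 for the PP2A, Greatwall and PP1 genes, and the 4 filled points right of 0 are *ATM*, *CDC14B*, *BTRC* and *MYC*.

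The genes whose pattern over the 12 arrays was most like that of each enzyme were found by the correlation of log2 levels with the mean of each line taken out, over 12127 genes, each by its brightest probe set. For *CDC25A* they were *NDUFS6*, *CCDC124* and *HSBP1* (r = 0.988 to 0.992), whose own changes from 0 to 3 µM were -1.12, -1.26 and -0.54. For *CDC25C* they were *ASPM* (r = 0.975), *HMGB2* (r = 0.967) and *MIA* (r = 0.95), and for *PKMYT1* they were *KIF23*, *BCL7B* and *ILF2* (r = 0.989 to 0.992). *CDC25B* and *WEE1* had looser neighbours, *RLF*, *ING3* and *ENPP4* for the former (r = 0.897 to 0.93) and *PI4KB*, *TRIM2* and *IRF8* for the latter (r = 0.894 to 0.919). The arrays share their lines and doses. These neighbours were not stable, for of the 15 at most 5 remained when 1 line was left out, and 0 without Fuji.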

How the data were processed

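RNA of 4 SS cell lines at 3 doses was measured on 12 arrays. The deposited table holds linear signal intensities that the authors computed with MAS5 (version not given in the sources used here). Quantile normalization in GeneSpring is named in the methods, but the columns differ in distribution, so it was applied here over the 12 arrays. The 20th percentile (12.1) was set as the floor before taking log2, which understates the change of dim probe sets. After normalization the 62 controls were dropped, and 27306 probe sets with a mean log2 above the median (6.03) were tested. Of all probe sets, 41097 are annotated with 1 symbol, 1801 with several and 11777 are not named here. No column was left out.

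All 12 arrays were fitted with limma 3.58.1 in R 4.3.3 (lmFit, eBayes with trend), with terms for the dose and for the line (the block). Adjusted p-values are by Benjamini-Hochberg, with 0.05 as the threshold. The replicate number is the cell line, which pairs the arrays. After the dose means were taken out, arrays of 1 line correlated with r = 0.788 to 0.907 and arrays of different lines with r = -0.415 to -0.103. No 2 arrays were identical (highest r = 0.981). Depth is not defined for arrays, and their number limits the precision.

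The genes and lists were chosen with earlier results of these data known. All probe sets of the 5 genes are named, with the 3 genes of smallest p at 3 µM in each list, those called in the rarer direction, and the 3 genes most like each enzyme. A further gene considered for the lists is not reported here. Fibroblast and endothelial markers (3 of 6 tested) gave 0 calls at any comparison, with 1 at an unadjusted p under 0.05 at 3 µM against either lower dose. *LUM* ranged from 38.2 to 42046 between lines. Of 5 SS markers tested, 4 were higher at 3 µM. Of 6 leukocyte markers, 3 had a probe set with 1 symbol and 0 passed the filter. Alternatives changed the normalization, floor (log2 of the signal plus 16), filter, probe sets per gene, block, arrays in the fit and lines. Promoter letters were searched in RefSeq sequences, where *WEE1* and *PKMYT1* were not among those used here.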

Additional observations from a re-analysis of the deposited data

Results flagged for a closer look

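In 60 groups of 4 values, the signals of each dose and the changes of the lines for each probe set, 5 held a line whose gap to its neighbour, as a share of the range of the group, was above the 95% critical value of Dixon. About 1 in 20 groups would by chance. Fuji was the line apart in 4 of them. From 0 to 0.3 µM it had log2 changes of -0.96 for *CDC25B* (others 0.026 to 0.081), -2.10 for *CDC25C* 205167_s_at (others -0.11 to 0.27) and -0.86 for *PKMYT1* (others -0.27 to -0.18), and from 0 to 3 µM it had -1.13 for *PKMYT1* (others -0.57 to -0.49). The fifth was *CDC25A* 1555772_a_at from 0 to 0.3 µM, where SYO-1 was at -0.28 and the others between -1.26 and -1.17.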

How the results depend on the processing

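Counts are of the 9 probe sets of the family, of all probe sets and of listed genes. At 0.3 against 0 µM these were 1, 1453 and 9 lower, at 3 against 0 µM 4, 10746 and 48 lower with 4 higher, and at 3 against 0.3 µM 2 and 3143. Leaving out the replicate block, that is the pairing by line, gave 0, 0 and 0 at the first (2, 782 and 3 at an unadjusted p under 0.05). At the second it gave 2, 582 and 1 lower with 0 higher (unadjusted 3, 4736 and 30 lower with 3 higher). At the last it gave 0 and 0 (2 and 1281 unadjusted). Without the filter, counts at 0.3 µM were 0, 9 and 0 (4 of the family and 30 listed genes unadjusted), and between the doses 1 and 976. With the filter at the 65th percentile the *CDC25A* probe sets are not tested, and the family had 0, 1 and 0 (1 unadjusted in each). With 1 probe set for each gene there were 961, 5304 and 1862 calls over all genes and 2 and 1 of the family at 3 µM and between doses. With the deposited scaling 14 listed genes were lower at 0.3 µM and 7 of 15 most alike genes remained. With log2 of the signal plus 16, 2 of the family were lower at 0.3 µM. With 2 doses fitted alone there were 3 and 2404 calls at 0.3 µM. In these 2 settings *CDC25A* 1555772_a_at passed there (adjusted p = 0.04 and 0.024), as did 204696_s_at in the latter (0.0391). However, 204696_s_at passed the filter mainly through the untreated arrays.

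Leaving out 1 line in turn gave 0 to 0, 3 to 4 and 1 to 2 of the family (unadjusted at 0.3 µM: 3 without Fuji, 5 without Yamato-SS and 4 without either other line), 1 to 499, 8339 to 9500 and 896 to 2355 of all probe sets (1 without Aska-SS and 29 without Fuji at 0.3 µM), 0 to 2 and 45 to 49 listed genes lower, 3 to 4 higher at 3 µM, and 0 to 5 alike genes. Signs turned, with no call in either fit, in the log2 changes at 0.3 µM of *WEE1* 215711_s_at (-0.049 to 0.092, negative without Aska-SS, -0.037, or SYO-1) and, without Fuji, of *CDC25B* (-0.31 to 0.043), *CDC25C* 205167_s_at (-0.69 to 0.096) and 217010_s_at (-0.68 to 0.016). Between the doses they turned without Aska-SS for *CDC25A* 204696_s_at (-0.65 to 0.55) and *WEE1* 212533_at (-0.13 to 0.10), and for *WEE1* 215711_s_at (-0.15 to 0.020) without Yamato-SS (0.0022) or Fuji. The fall of *CDC25A* 204695_at between the doses kept its call under all alternatives that tested it (limma adjusted p = 0.000788 to 0.0245), except without the block (0.669). Its fall at 0.3 µM had adjusted p = 0.175 without the filter. The fall of 1555772_a_at between the doses had 0.0604 without the filter. Both falls between the doses use the arrays at 3 µM on which the family was chosen. Both probe sets passed the filter through the other doses, so a kept call is no independent support. The untested changes from 0 to 3 µM turned sign for *CDC25B* and *WEE1* 212533_at without Aska-SS (-0.010 and -0.049), for *WEE1* 215711_s_at without Yamato-SS (0.094) or Fuji (0.11) and with the deposited scaling (0.029), and for *CDC25C* 205167_s_at (0.22) without Fuji and 217010_s_at (0.18) without Fuji or with the deposited scaling (0.0026). Causes were not tested. No *CDC25A* signal was at the floor of 12.1. At 3 µM that of 204695_at was near it in Aska-SS (19.8) and SYO-1 (20.1), where the size of the fold is less certain.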
